A study of Mus musculus with 24 samples.

Results

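The mouse zinc finger genes with the high-number symbols Zfp500 to Zfp999 were followed in RNA sequencing of oocytes. They were chosen by symbol alone and kept where at least 10 counts were present in 2 or more of the 12 deposited RNA columns. The authors counted 55401 genes, of which 221 carried such a symbol. Of the 221, 183 were kept and 38 were not, 8 of these with no count in any column. Of the 183 members, 181 also passed the expression filter and were tested among 16736 genes. The rule had little margin at its edge: 8 members reached 10 counts in exactly 2 columns (largest count 11 for Zfp783 to 147 for Zfp518b), and 5 left-out genes, Zfp697, Zfp747, Zfp874a, Zfp879 and Zfp986, reached it in 1 column (largest count 10 to 20). Another 5 members, Zfp771, Zfp783 and Zfp882 in in vivo PSMPs, Zfp503 in PSMPs & OE-Hdac3 and Zfp711 in SAHA, reached 10 counts in 1 group only.

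Each library pooled 5 cells, and there were 6 groups with 2 columns each. The sample labels call the cells oocytes, while the study's design text speaks of RNA sequencing on oocytes and in the same sentence calls the pooled material embryos. They are called oocytes here. The groups were oocytes exposed to polystyrene microplastics (PSMPs) that also overexpressed the histone deacetylase gene Hdac3 (PSMPs & OE-Hdac3), oocytes exposed in culture (in vitro PSMPs), oocytes treated with SAHA, an inhibitor of many histone deacetylases also known as vorinostat (SAHA), and controls for culture (con-in vitro). The remaining groups were oocytes exposed in the animal (in vivo PSMPs) and controls (con). Strain, age, dose and duration are not in the labels, which also leave out the control for SAHA and how the Hdac3 group was exposed, so each of these groups was set against both candidates. Whether the replicate columns come from different animals is not in the labels, and the p-values therefore reflect only how far these libraries spread, which may be technical. Both in vivo PSMPs columns agreed within counting noise, with a chi-square per degree of freedom of 0.444 where the replicates of the other groups gave 16.5 to 384. They were therefore merged into 1 sample (n = 1), whose spread was taken to be like that of the rest.

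Most genes with such symbols encode proteins with arrays of C2H2 zinc fingers, each of which folds around a zinc ion and contacts DNA. Many also carry a KRAB box, which recruits the corepressor TRIM28 and through it the H3K9 methyltransferase SETDB1 and histone deacetylase complexes, and are known for silencing endogenous retroviruses and protecting genomic imprints in early embryos. The KRAB genes arose by tandem duplication, lie in clusters and have near-identical neighbours, and deletion of such clusters in mouse embryonic stem cells, the distal chromosome 4 cluster among them, releases some endogenous retroviruses. Other members have unrelated roles, from ribosome quality control to meiotic prophase.

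Totals ran from 6.22 M to 35.6 M counts per column, and levels are given as CPM (counts per 1 M counts of a library) after TMM scaling, with factors from 0.542 to 1.57. The 16 oocyte markers summed to between 11700 and 58900 CPM in every library, with 1 marker at 0 in the second con-in vitro library. The 20 cumulus and granulosa markers summed to between 35.8 and 165 CPM, lowest in the second con-in vitro library and highest in in vivo PSMPs, with 14 to 15 of 20 at 0 in con-in vitro and con and 4 to 9 of 20 at 0 elsewhere. The 5 leukocyte and erythroid markers reached at most 3.92 CPM in sum, with 3 to 5 of them at 0. The part of these cells in the member results was not tested. In pools of whole cells, fewer cells and less RNA per cell cannot be told apart.

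Because the results turn on a cluster of close relatives on distal chromosome 4, the 250 bases before the start of 5 of its members are printed first. The window of Zfp598, a gene on chromosome 17, follows for contrast. In in vitro PSMPs against con-in vitro Zfp598 was lower, as was Zfp985 of the cluster, while Zfp600 and Zfp979 were higher. The sequences are from RefSeq (GRCm38.p6), which held a window for 151 of the 183 members, and run 5′ to 3′. Capitals mark GGGCGG (the GC box) and CCAAT on either strand.
Zfp980, chr4:145670447-145670696, plus strand: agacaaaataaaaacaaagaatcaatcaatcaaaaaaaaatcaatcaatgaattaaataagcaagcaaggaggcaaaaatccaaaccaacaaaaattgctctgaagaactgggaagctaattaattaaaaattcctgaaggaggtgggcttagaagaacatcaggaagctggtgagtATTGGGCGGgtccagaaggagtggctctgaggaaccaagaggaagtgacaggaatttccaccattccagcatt
Zfp600, chr4:146156577-146156826, plus strand: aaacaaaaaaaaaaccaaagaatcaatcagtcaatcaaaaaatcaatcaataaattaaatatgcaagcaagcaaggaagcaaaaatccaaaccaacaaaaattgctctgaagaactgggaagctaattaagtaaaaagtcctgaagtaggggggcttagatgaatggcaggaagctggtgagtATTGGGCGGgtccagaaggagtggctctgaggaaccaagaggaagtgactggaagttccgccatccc
Zfp979, chr4:147642509-147642758, minus strand: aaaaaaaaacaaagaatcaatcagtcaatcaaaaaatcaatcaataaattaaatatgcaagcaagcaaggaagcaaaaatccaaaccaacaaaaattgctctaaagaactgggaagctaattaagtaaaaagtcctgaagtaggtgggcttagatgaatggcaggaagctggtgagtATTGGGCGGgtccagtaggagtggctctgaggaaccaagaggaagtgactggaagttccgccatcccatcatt
Zfp982, chr4:147492167-147492416, plus strand: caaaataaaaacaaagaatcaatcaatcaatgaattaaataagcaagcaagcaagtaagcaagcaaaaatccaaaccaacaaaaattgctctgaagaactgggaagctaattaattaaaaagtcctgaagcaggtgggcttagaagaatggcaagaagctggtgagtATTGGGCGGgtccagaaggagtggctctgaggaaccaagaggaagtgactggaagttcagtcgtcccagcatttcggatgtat
Zfp985, chr4:147553027-147553276, plus strand: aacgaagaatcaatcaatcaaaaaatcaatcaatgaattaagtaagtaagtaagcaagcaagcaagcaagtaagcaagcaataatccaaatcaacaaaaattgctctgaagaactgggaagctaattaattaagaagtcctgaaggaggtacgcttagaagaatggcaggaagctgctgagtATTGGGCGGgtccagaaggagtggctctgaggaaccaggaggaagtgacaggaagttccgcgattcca
Zfp598, chr17:24669437-24669686, plus strand: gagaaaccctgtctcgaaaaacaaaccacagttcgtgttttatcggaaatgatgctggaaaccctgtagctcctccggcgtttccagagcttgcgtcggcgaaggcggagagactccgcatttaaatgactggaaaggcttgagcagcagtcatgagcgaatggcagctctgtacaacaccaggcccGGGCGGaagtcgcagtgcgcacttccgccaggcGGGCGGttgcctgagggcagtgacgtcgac
The 5 cluster windows were 82.0% to 94.1% identical over their 10 pairs. Each held the 9 letters ATTGGGCGG, in which the reverse complement of CCAAT overlaps GGGCGG. This string was looked for after it had been seen here. It was present on either strand in 8 of the 12 cluster members with a window, in 10 of 151 members (6.62%) and in 69 of 27025 windows of all genes (0.255%). The 5 cluster windows held 1 to 5 CpG dinucleotides, and the Zfp598 window held 20, with GGGCGG at 2 places and no CCAAT. The median was 10 in members, 10.5 in Zfp genes numbered below 500 and 6 in all windows. A match describes the letters of these windows and is not a measured binding site.

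Members were detected at very different rates across the groups. The share of the 183 members with at least 1 count was 98.4% and 99.5% in the PSMPs & OE-Hdac3 libraries, 97.8% and 96.7% in in vitro PSMPs, 96.2% and 96.7% in SAHA, 68.3% and 68.3% in con-in vitro, 92.9% in in vivo PSMPs and 66.1% and 67.2% in con. Both control groups therefore lacked about 1 member in 3 that the other groups detected, although the con libraries were among the deepest and the con-in vitro libraries the shallowest. The same held for all genes tested, of which 65.6% to 70.6% were detected in the 4 control libraries and 91.8% to 96.6% in the others. A member at 0 in a group is not shown to be absent there: a library's floor of 3 counts lay between 0.0773 and 0.89 CPM, which covers counting error only.

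**Figure D1:**
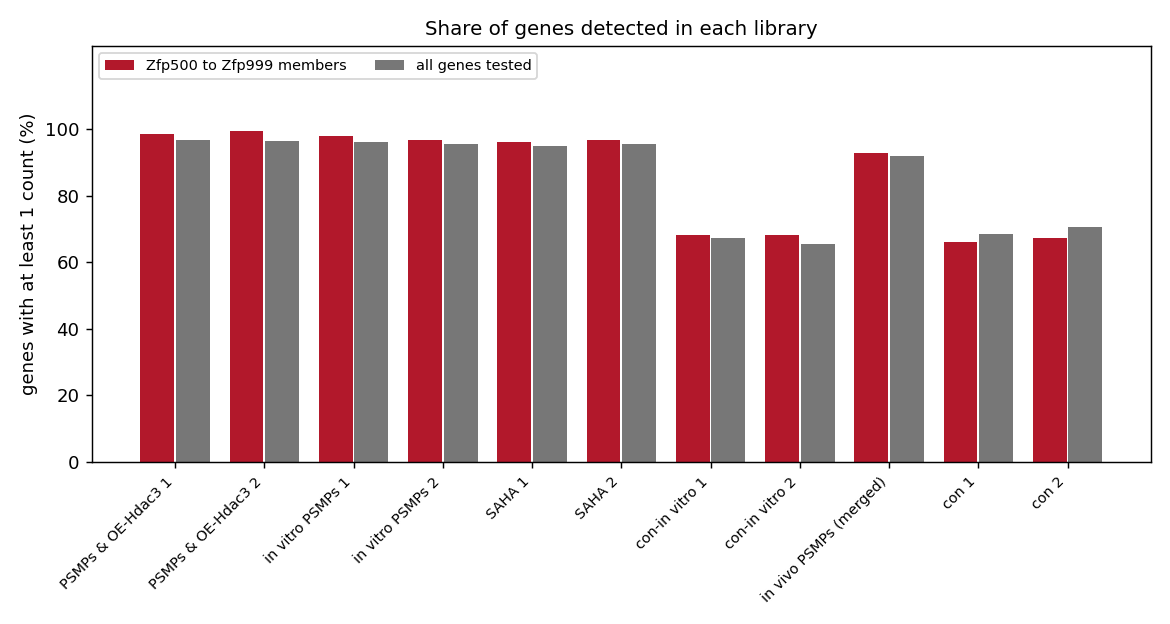
Share of genes with at least 1 count (%) in each library for the 183 members (red) and for all 16736 genes tested (grey). In con-in vitro and con 66.1% to 68.3% of the members are detected, against 92.9% to 99.5% in the other libraries, and the grey bars follow the red ones.

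The summed level of the members was lowest in PSMPs & OE-Hdac3. It was 2980 and 3050 CPM in PSMPs & OE-Hdac3, 4770 and 6330 CPM in in vitro PSMPs, 6800 and 6330 CPM in SAHA, 7410 and 6700 CPM in con-in vitro, 3790 CPM in in vivo PSMPs, against 4880 and 4150 CPM in con. A single member, Zfp985, made up 26.9% and 36.4% of the con-in vitro sums, which without it were 5420 and 4260 CPM. By group mean, 47 members were highest in SAHA, 42 in con-in vitro, 41 in PSMPs & OE-Hdac3, 19 in in vitro PSMPs, 18 in in vivo PSMPs and 16 in con. As lowest group, 67 were assigned to con and 33 to con-in vitro. Ties at 0 went to con before con-in vitro, so these counts depend on that order. Of the 181 tested members, 37 had no count in con and 38 none in con-in vitro, as did 3515 and 4045 of all 16736 genes tested. The highest and lowest groups were not counted over all genes. Per kilobase of exon and averaged over the 6 group means, the most abundant members were Zfp985 (132 CPM per kb), Zfp655 (97.8), Zfp706 (74.1), Zfp735 (65.8) and Zfp616 (47.4). Zfp985 held first place through con-in vitro, where it reached 771 CPM per kb, against 0.754 to 6.31 CPM per kb in the other groups.

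Exposure in culture was compared with the cultured controls. Of 181 members, 10 were higher and 11 lower in in vitro PSMPs at a Benjamini-Hochberg adjusted p under 0.05 in edgeR's quasi-likelihood test (11.6%), where 15.4% of all genes were called, 8.57% higher and 6.78% lower. The median log2 fold change was 0.69 in members and 0.71 in all genes, so the members as a whole moved with the table. With library totals instead of TMM factors the split was 26 higher and 6 lower, while the median of all genes moved to 1.70. The count was 5 and 7 without the first or second in vitro PSMPs library, 8 without either SAHA library or either PSMPs & OE-Hdac3 library, 11 without con-in vitro 2, and 54 and 55 without con 1 or con 2. Oocyte markers moved in the same comparison, with 6 of 16 higher in in vitro PSMPs and sums of 41600 and 51400 CPM in in vitro PSMPs, against 11700 and 13000 CPM in con-in vitro, and their part was not tested.

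Of the named members that fell, Zfp985, Zfp512b and Zfp598 kept the call in each of the 12 fits that left out 1 column, and Zfp985 is described with the control groups. Zfp598 encodes an E3 ubiquitin ligase that recognises collided ribosomes, and lies at chr17:24669687-24682016 (mm10, plus strand). Its level was 10.2 and 14.6 CPM in in vitro PSMPs, against 72.4 and 112 CPM in con-in vitro (log2 fold change -2.89 ± 0.41 SE, edgeR adjusted p = 0.00194). The groups did not overlap. Zfp512b had 17.7 and 21.8 CPM in in vitro PSMPs, against 216 and 178 CPM in con-in vitro (log2 fold change -3.32 ± 0.46 SE, edgeR adjusted p = 0.00161). Zfp574 had 12.9 and 10.8 CPM in in vitro PSMPs, against 46.3 and 85.0 CPM in con-in vitro (log2 fold change -2.47 ± 0.67 SE, edgeR adjusted p = 0.0384). Its adjusted p rose to at most 0.181 without con-in vitro 2 or any 1 library of in vitro PSMPs, SAHA or PSMPs & OE-Hdac3, and the call was also lost with library totals.

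Among the members that rose, Zfp706 was the most abundant. It encodes a small zinc finger protein that favours exit from self-renewal in mouse embryonic stem cells. Its level was 516 and 571 CPM in in vitro PSMPs, against 155 and 56.6 CPM in con-in vitro (log2 fold change 2.36 ± 0.45 SE, edgeR adjusted p = 0.00898). Zfp979, of the chromosome 4 cluster, had 80.6 and 69.7 CPM in in vitro PSMPs, against 17.5 and 19.7 CPM in con-in vitro (log2 fold change 2.01 ± 0.50 SE, edgeR adjusted p = 0.0265). Its close relative Zfp600 had 11.3 and 14.2 CPM in in vitro PSMPs, against 0.593 and 0 CPM in con-in vitro, a ratio of 44.8 with a 95% Poisson interval of 12.4 to 370 (edgeR adjusted p = 0.0442). Of the 10 that rose, 5 were at 0 in both con-in vitro libraries, as were 426 of the 1435 higher genes in the whole table. Zfp868 was at least 21.6-fold and Zfp523 at least 13.9-fold higher in in vitro PSMPs than the floor of 3 counts over the con-in vitro group allows. The Zfp706 call held in every fit that left out 1 column. The call of Zfp523 was lost without in vitro PSMPs 2 (adjusted p = 0.0703 in edgeR). The Zfp979, Zfp600 and Zfp868 calls were lost without either in vitro PSMPs library, either SAHA library or con-in vitro 2, among others, with edgeR adjusted p of at most 0.115, 0.144 and 0.146.

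Overexpression of Hdac3 in exposed oocytes was set against exposure alone in culture. Here 3 members rose and 7 fell in PSMPs & OE-Hdac3 (5.52%), where 4.83% of all genes were called, 1.85% higher and 2.98% lower, and the medians were -0.41 in members and 0.09 in all genes. Zfp genes numbered below 500 had a median of 0.45 with 1 member higher and 2 lower of 145. The split was 8 higher and 5 lower with library totals, under which the median of all genes moved to 0.60. All genes then split into 548 higher and 306 lower. None was called without either PSMPs & OE-Hdac3 library or without in vitro PSMPs 2, 2 were called without in vitro PSMPs 1 or either SAHA library, 19 without either con-in vitro library, and 39 and 38 without con 1 or con 2.

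The 3 members that rose were Zfp598, Zfp574 and Zfp740. Zfp598 had 106 and 115 CPM in PSMPs & OE-Hdac3, against 10.2 and 14.6 CPM in in vitro PSMPs (log2 fold change 3.15 ± 0.42 SE, edgeR adjusted p = 0.0113). Zfp574 had 89.1 and 87.5 CPM in PSMPs & OE-Hdac3 and 12.9 and 10.8 CPM in in vitro PSMPs (2.90 ± 0.68 SE on the log2 scale, edgeR adjusted p = 0.0461). Zfp740 had 34.4 and 37.0 CPM in PSMPs & OE-Hdac3 and 5.27 and 6.38 CPM in in vitro PSMPs (2.61 ± 0.63 SE on the log2 scale, edgeR adjusted p = 0.0485). All 3 were thus several times higher with Hdac3 overexpression, with no overlap between the libraries. The level of Zfp598 in PSMPs & OE-Hdac3 lay beside the 72.4 and 112 CPM of con-in vitro and below the 260 and 190 CPM of con.

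The 7 members that fell included some of the most abundant. Zfp735, at chr11:73688778-73713798, had 20.3 and 24.1 CPM in PSMPs & OE-Hdac3, against 304 and 493 CPM in in vitro PSMPs (log2 fold change -4.17 ± 0.82 SE, edgeR adjusted p = 0.0241). Its chromosome 11 neighbour Zfp616, at chr11:74069955-74087292, had 30.1 and 44.0 CPM in PSMPs & OE-Hdac3 and 295 and 460 CPM in in vitro PSMPs (-3.35 ± 0.61 SE on the log2 scale, edgeR adjusted p = 0.0206). Zfp979 had 4.03 and 7.28 CPM in PSMPs & OE-Hdac3 and 80.6 and 69.7 CPM in in vitro PSMPs (-3.73 ± 0.53 SE on the log2 scale, edgeR adjusted p = 0.0113). These 3 were over 9-fold lower by group mean in the overexpressing oocytes, and each was lower there than in any other library of the study. Zfp942 of a chromosome 17 cluster fell by 3.01 on the log2 scale, and Zfp655 (180 and 241 CPM in PSMPs & OE-Hdac3, 736 and 731 CPM in in vitro PSMPs) by 1.80. Zfp706 and Zfp654 each fell by 1.90. The calls of Zfp598 and Zfp979 were lost in 3 of the 12 fits that left out 1 column, without either PSMPs & OE-Hdac3 library or in vitro PSMPs 2, with edgeR adjusted p of at most 0.136 and 0.163. The other 8 members lost theirs without any 1 library of PSMPs & OE-Hdac3, in vitro PSMPs or SAHA, at an edgeR adjusted p of up to 0.356 for Zfp654. Oocyte markers moved in the same comparison, with 3 of 16 lower in PSMPs & OE-Hdac3, a median log2 fold change of -0.90 and sums of 22200 and 26100 CPM in PSMPs & OE-Hdac3, against 41600 and 51400 CPM in in vitro PSMPs. Their part in the member results was not tested.

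**Figure D2:**
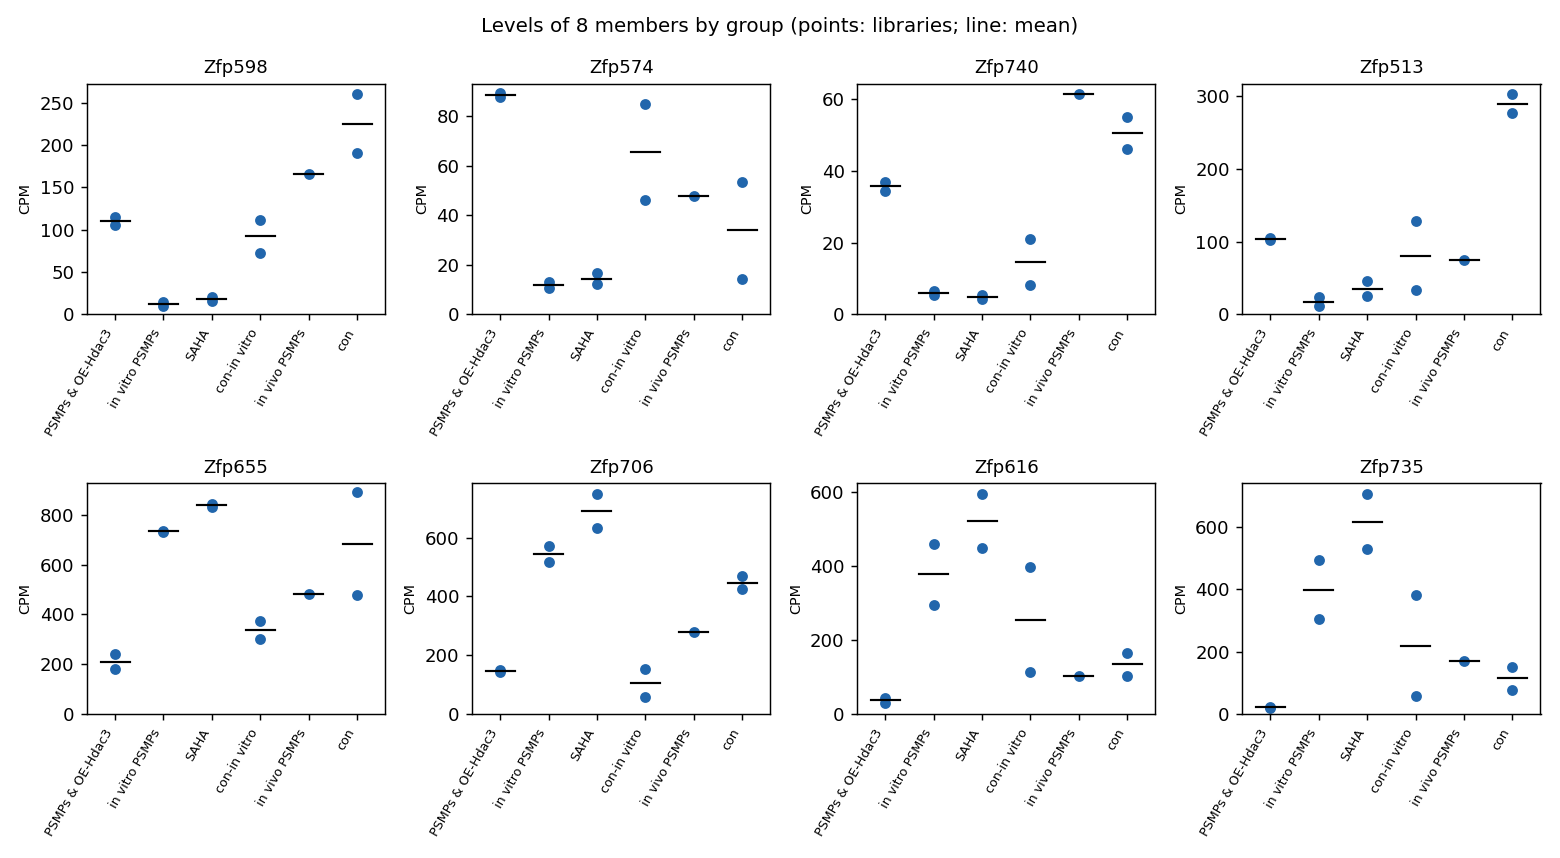
Level (CPM, linear axis from 0) of 8 members in the 6 groups; points are libraries, the line is the group mean, and in vivo PSMPs is 1 merged sample. Zfp598, Zfp574 and Zfp740 are low in in vitro PSMPs and SAHA, and Zfp655, Zfp706, Zfp616 and Zfp735 are high there and low in PSMPs & OE-Hdac3.

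Against exposure in the animal, edgeR called none of the 181 members in PSMPs & OE-Hdac3, and none of all 16736 genes (0.0%). At an unadjusted p under 0.05 edgeR gave 17 of the 181 members and 2407 of all 16736 genes. DESeq2 called 12 members and 870 of all genes at an adjusted p under 0.05. Zfp979 had the values 4.03 and 7.28 CPM in PSMPs & OE-Hdac3 and 82.5 CPM in in vivo PSMPs, with a fitted log2 fold change of -3.87 ± 0.58 SE that missed the threshold (edgeR adjusted p = 0.105). Zfp598 was nearer, at 106 and 115 CPM in PSMPs & OE-Hdac3 and 166 CPM in in vivo PSMPs. With 1 sample on one side the comparison says little about single members. Leaving out con 1 or con 2 gave 4 and 10 calls.

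SAHA was set against both candidate controls. Against con-in vitro, 16 members were higher and 13 lower in SAHA (16%), where 19.8% of all genes were called, 11.7% higher and 8.14% lower, with medians of 0.62 in members and 0.66 in all genes. Against con, 53 were higher and 9 lower in SAHA (34.3%), where 27.0% of all genes were called, 20.2% higher and 6.75% lower, with medians of 1.61 and 0.59. Both con libraries lacked any count for 26 of the 53 members that were higher, and for 2190 of the 3382 higher genes in the whole table. With library totals the split against con-in vitro was 32 higher and 8 lower, and the median of all genes was 1.37. Against con-in vitro, 4 members were called without either SAHA library, 11 without either PSMPs & OE-Hdac3 library, 12 without either in vitro PSMPs library, 15 without con-in vitro 2, and 70 and 68 without con 1 or con 2. Against con, 4 and 5 were called without SAHA 1 or SAHA 2, 38 and 39 without the first or second PSMPs & OE-Hdac3 library, and 97 without con 1, while a fit to those groups alone called 12, 5 higher and 7 lower. The fit to SAHA and con alone called 1450 of all genes, 1024 higher and 426 lower. Of the 16 oocyte markers 8 were higher in SAHA than in con-in vitro, and 5 were higher and 1 lower than in con, with sums of 52200 and 58900 CPM in SAHA, 11700 and 13000 CPM in con-in vitro and 43700 and 44500 CPM in con, and their part was not tested.

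The most abundant members that rose in SAHA were Zfp706, Zfp655, Zfp957 and Zfp873. Zfp706 had 750 and 633 CPM in SAHA, against 155 and 56.6 CPM in con-in vitro (log2 fold change 2.71 ± 0.46 SE, edgeR adjusted p = 0.00417), and this call held in every fit that left out 1 column. Against con, whose libraries had 424 and 470 CPM of Zfp706, it was not called. Zfp982 of the chromosome 4 cluster had 229 and 197 CPM in SAHA, 17.5 and 1.64 CPM in con-in vitro and 0.730 and 9.53 CPM in con. Its fitted log2 fold change was 4.48 ± 1.27 SE against con-in vitro (edgeR adjusted p = 0.0388) and 5.37 ± 1.31 SE against con (edgeR adjusted p = 0.0194). It was thus high in both SAHA libraries and low in all 4 control libraries. Both calls were lost without either SAHA library, and that against con-in vitro also without con-in vitro 2, either in vitro PSMPs library or either PSMPs & OE-Hdac3 library, with edgeR adjusted p of at most 0.129 and 0.0702. Zfp942 had 146 and 177 CPM in SAHA, against 10.9 and 14.8 CPM in con (log2 fold change 3.65 ± 0.58 SE, edgeR adjusted p = 0.00676), a call lost without either SAHA library (edgeR adjusted p up to 0.0519).

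Members that fell in SAHA repeated several names. Zfp598 had 15.9 and 20.0 CPM in SAHA, 72.4 and 112 CPM in con-in vitro and 260 and 190 CPM in con, with log2 fold changes of -2.36 ± 0.40 SE against con-in vitro (edgeR adjusted p = 0.00414) and -3.65 ± 0.42 SE against con (edgeR adjusted p = 0.00257). The first call was lost without SAHA 1 (edgeR adjusted p = 0.0578) and the second held in all 12 fits. Zfp750, which promotes terminal differentiation of the epidermis, had 51.9 and 70.9 CPM in SAHA, against 169 and 226 CPM in con-in vitro and 204 and 226 CPM in con (-1.68 ± 0.34 SE and -1.81 ± 0.34 SE on the log2 scale). Zfp513, whose human counterpart is linked to a retinal dystrophy, had 24.6 and 45.7 CPM in SAHA, against 303 and 277 CPM in con (log2 fold change -3.04 ± 0.67 SE, edgeR adjusted p = 0.0149). Zfp740, Zfp821, Zfp703 and Zfp664 were lower in SAHA than in con as well, by -3.37, -3.30, -3.56 and -1.78 on the log2 scale. Leaving out either SAHA library cost the calls of Zfp750 and Zfp513 and those of the last 4 genes, with edgeR adjusted p of up to 0.141. The in vitro PSMPs and SAHA comparisons share the con-in vitro libraries, so their resemblance is no independent evidence. In in vitro PSMPs, which share no library with SAHA or con, Zfp740 had 5.27 and 6.38 CPM and Zfp513 had 11.6 and 23.7 CPM.

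Exposure in the animal was compared with con. In in vivo PSMPs 19 members were higher and 1 lower (11%), where 4.88% of all genes were called, 4.59% higher and 0.287% lower. The medians were 0.37 in members and 0.25 in all genes. All 20 calls lay close to the threshold, at edgeR adjusted p of 0.0453 to 0.0488. Both con libraries had no count for 13 of the 19 members that were higher, and for 609 of the 769 higher genes in the whole table. The member calls were all lost without any 1 library of SAHA, in vitro PSMPs or PSMPs & OE-Hdac3, and in a fit to the 2 groups alone. More members were called without any 1 library of con or con-in vitro. The calls over all genes fell and rose in the same fits. DESeq2 called 41 members and 2728 of all genes.

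Most of the rises were small in CPM. Zfp963 had 5.03 CPM in in vivo PSMPs, against 0 CPM in both con libraries, and was at least 113-fold above the floor of 3 counts over the con group. Zfp583 had 7.58 CPM in in vivo PSMPs, and 0 and 0.0515 CPM in the con libraries, a ratio of 256 with a 95% Poisson interval of 70.9 to 2120. Zfp839 was the highest of them, with 32.3 CPM in in vivo PSMPs, against 2.08 and 3.27 CPM in con (log2 fold change 3.59 ± 0.80 SE, edgeR adjusted p = 0.0464). Zfp622, which encodes a factor for maturation of the large ribosomal subunit, had 3.20 CPM in in vivo PSMPs, against 0 CPM in both con libraries. The 1 member that fell was Zfp595, at 0 CPM in in vivo PSMPs, against 19.3 and 10.2 CPM in con, at least 191-fold below con at the floor of 3 counts. Zfp595 stayed between 0 and 3.31 CPM in the other groups, so con alone reached 10 CPM. In the same comparison 10 of 14 tested cumulus and granulosa markers lay above both con libraries, as did 7626 of all 16736 genes tested. Of the 14 markers, 9 had no count in either con library and 2 were called. The marker sums were 165 CPM in in vivo PSMPs, against 47.5 and 70.8 CPM in con, and the part of these markers was not tested.

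**Figure D3:**
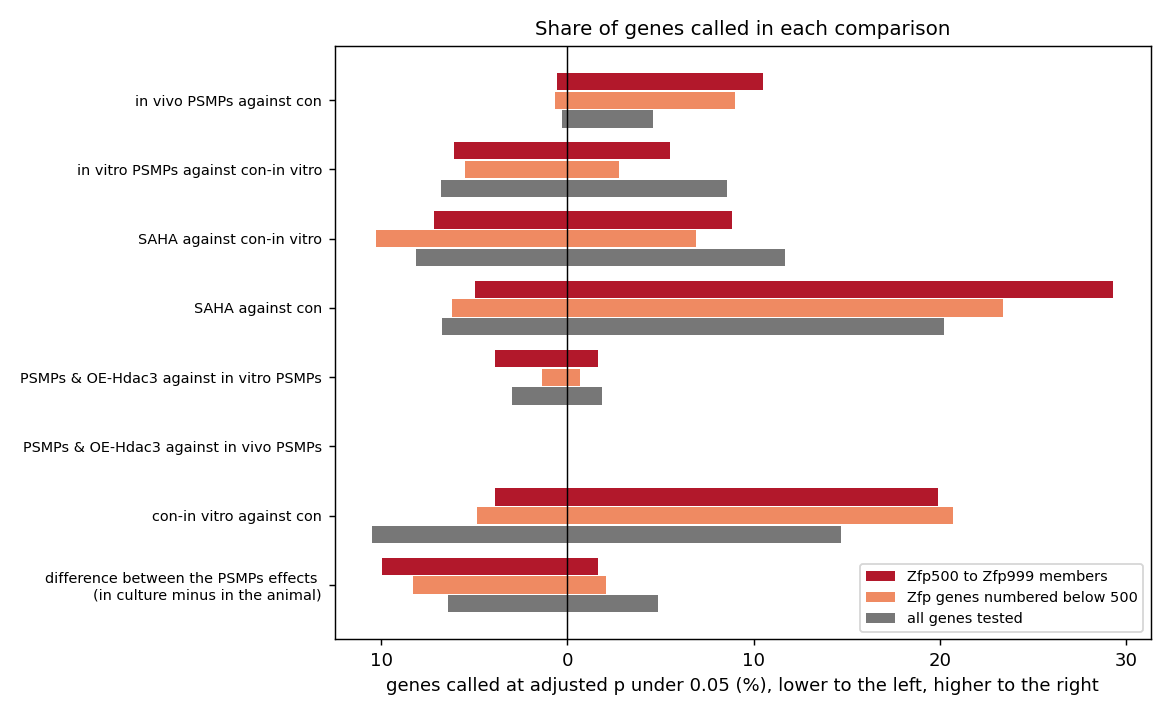
Share of genes (%) called higher (right) and lower (left) at an adjusted p under 0.05 in edgeR for the 181 tested members (red), 145 Zfp genes numbered below 500 (orange) and all 16736 genes tested (grey). SAHA against con and con-in vitro against con give the members their largest shares called, 34.3% and 23.8%, and no gene is called in PSMPs & OE-Hdac3 against in vivo PSMPs.

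The cultured controls differed from the uncultured ones in many members. In con-in vitro 36 members were higher and 7 lower than in con (23.8%), where 25.1% of all genes were called, 14.7% higher and 10.5% lower. With library totals the split was 29 higher and 16 lower, and the median of all genes moved by -0.49. Both con libraries had no count for 18 of these 36, and for 1134 of the 2452 higher genes in the whole table. The count was 28 without either SAHA library, 78 without con 2, and 6 in a fit to the 2 groups alone. Of the 16 oocyte markers 5 were lower in con-in vitro, with sums of 11700 and 13000 CPM in con-in vitro, against 43700 and 44500 CPM in con, and their part was not tested.

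Zfp985, a member of the chromosome 4 cluster at chr4:147553277-147585198, set the scale. It had 1990 and 2440 CPM in con-in vitro, against 2.88 and 4.15 CPM in con (log2 fold change 9.29 ± 0.68 SE, edgeR adjusted p = 9.82e-05), and the other groups had 2.17 to 27.1 CPM. No library outside con-in vitro came within 70-fold of it. Against the same con-in vitro libraries it was lower in in vitro PSMPs (-6.93 ± 0.61 SE on the log2 scale, edgeR adjusted p = 0.000217) and in SAHA (-7.28 ± 0.62 SE on the log2 scale, edgeR adjusted p = 0.000184). These 3 calls held in every fit that left out 1 column and under every other alternative. Zfp536, a repressor of neuronal differentiation, had 163 and 187 CPM in con-in vitro and 0 and 0.0515 CPM in con, and lay between 1.93 and 32.1 CPM elsewhere. Its ratio in con-in vitro over con was 5920 with a 95% Poisson interval of 1640 to 48900 (edgeR adjusted p = 0.000176). Zfp710 and Zfp788 followed the same order, with 115 and 131 CPM and 31.5 and 40.7 CPM in con-in vitro, against 0.556 and 1.96 CPM and 0.208 and 0.206 CPM in con. Zfp512b was less extreme, with 216 and 178 CPM in con-in vitro and 40.6 and 64.1 CPM in con (log2 fold change 1.91 ± 0.43 SE, edgeR adjusted p = 0.0131), a call lost with library totals.

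Of the 7 members lower in con-in vitro, the best measured was Zfp541. It works with HDAC1 and HDAC2 in a complex needed for meiotic prophase of mouse spermatocytes. It had 7.42 and 14.2 CPM in con-in vitro, against 103 and 122 CPM in con (log2 fold change -3.37 ± 0.56 SE, edgeR adjusted p = 0.00323), and the call held in all 12 fits that left out 1 column. Its level in the other groups was intermediate, 41.4 and 38 CPM in PSMPs & OE-Hdac3, 20.0 and 39.0 CPM in in vitro PSMPs, 25.4 and 25.7 CPM in SAHA and 44.3 CPM in in vivo PSMPs. Zfp868 and Zfp523 were at 0 in both con-in vitro libraries, against 0.695 and 20.5 CPM and 5.32 and 4.97 CPM in con. Zfp868 lost its call in 9 of the 12 fits, every one but those without con 1 or an in vivo PSMPs column, with an edgeR adjusted p of at most 0.106.

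**Figure D4:**
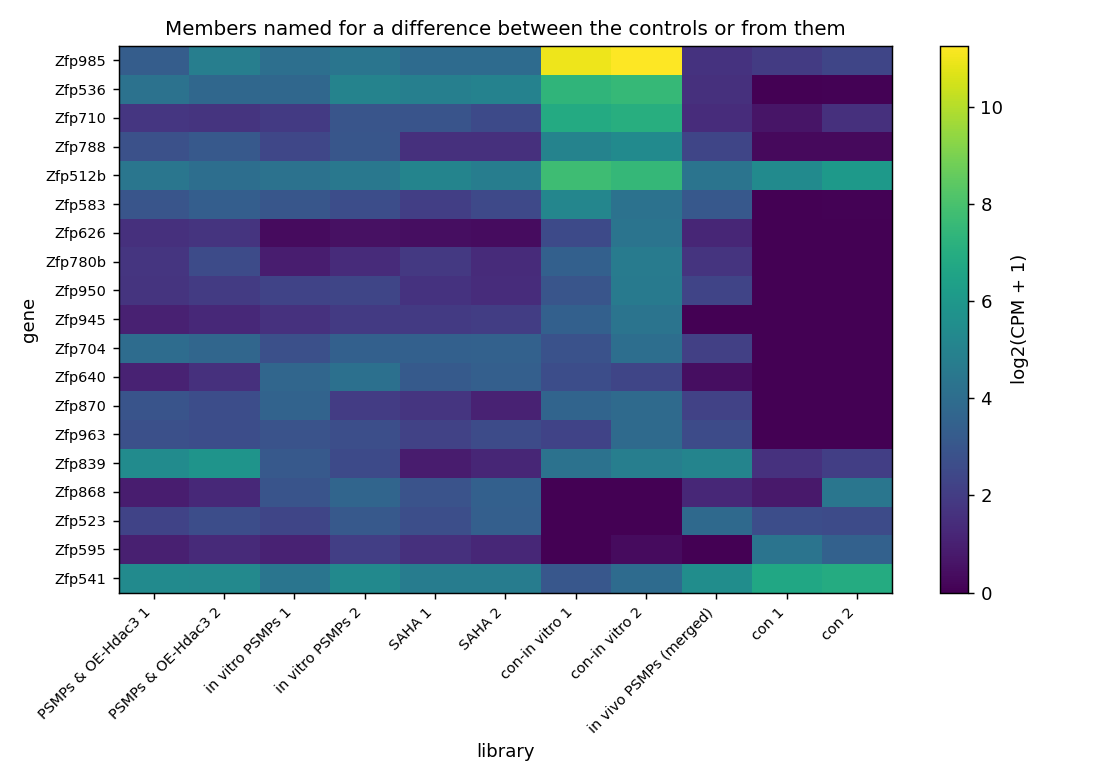
Level as log2(CPM + 1) of 19 members chosen by the rule for named genes for their differences between con-in vitro and con or from either, by library. Zfp985, Zfp536 and Zfp710 are brightest in both con-in vitro libraries, the 8 members from Zfp626 to Zfp963 are at 0 in both con libraries, and Zfp868 and Zfp523 are at 0 in con-in vitro.

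The effects of PSMPs in culture and in the animal were compared by testing the difference itself (in vitro PSMPs minus con-in vitro, less in vivo PSMPs minus con). In this contrast 3 members were above and 18 below 0 (11.6%), where 11.3% of all genes were called, 4.87% above and 6.4% below. With library totals the split was 6 above and 15 below, and the median of all genes was 0.66. Members that exceeded con in in vivo PSMPs but were lower or level in in vitro PSMPs against con-in vitro gave most of the negative values. Zfp536 is an example, with 12.6 and 32.1 CPM in in vitro PSMPs, 163 and 187 CPM in con-in vitro, 1.93 CPM in in vivo PSMPs, against 0 and 0.0515 CPM in con (-8.74 ± 1.15 SE on the log2 scale, edgeR adjusted p = 0.00339). Zfp706 is an example of the other direction, with 516 and 571 CPM in in vitro PSMPs, 155 and 56.6 CPM in con-in vitro, 280 CPM in in vivo PSMPs, against 424 and 470 CPM in con (3.04 ± 0.72 SE on the log2 scale, edgeR adjusted p = 0.0301). By its construction the contrast also contains the difference between con-in vitro and con. The Zfp706 call was lost without any 1 library of in vitro PSMPs, SAHA or PSMPs & OE-Hdac3 (edgeR adjusted p up to 0.0944), and the count was 4 and 2 without the first or second in vitro PSMPs library, 10 without either PSMPs & OE-Hdac3 library, 13 without either SAHA library, and 41, 53 and 32 without con 1, con 2 or con-in vitro 1.

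Most members lay in genomic clusters. The 183 members lay on 19 chromosomes. With neighbours joined when no more than 500 kb apart, 121 of them fell into 27 clusters and 62 stood alone. The largest cluster held 17 members over 2340 kb of chromosome 4 (chr4:145510759-147848366, mm10), and the next held 13 members over 1480 kb of chromosome 17 (chr17:21383748-22867134). Without Zfp985, which was set apart after its values were seen, the other 16 members of the chromosome 4 cluster summed to 26.4 and 38.6 CPM in PSMPs & OE-Hdac3, 345 and 442 CPM in in vitro PSMPs, 610 and 521 CPM in SAHA, 187 and 67.2 CPM in con-in vitro, 102 CPM in in vivo PSMPs, against 75.3 and 51.8 CPM in con. The sums in SAHA and in vitro PSMPs lay above those of all other libraries. The sums in PSMPs & OE-Hdac3 were the lowest, but Zfp979 alone gave 82.5 CPM of the in vivo PSMPs sum, and the median over the 16 members was 0.879 and 1.23 CPM in PSMPs & OE-Hdac3, 1.12 CPM in in vivo PSMPs and 0.938 and 0.412 CPM in con. The median log2 fold change of all 17 in PSMPs & OE-Hdac3 against in vivo PSMPs was 0.69. The median log2 fold change of all 17 was -3.56 in PSMPs & OE-Hdac3 against in vitro PSMPs, 2.01 in in vitro PSMPs against con-in vitro and 3.88 in SAHA against con, beside 0.09, 0.71 and 0.59 in all genes. Few single members passed the test outside SAHA against con: 1 of 17 fell in PSMPs & OE-Hdac3 against in vitro PSMPs (2.98% of all genes), and 3 rose and 1 fell in in vitro PSMPs against con-in vitro (8.57% and 6.78% of all genes). In SAHA against con 10 of 17 rose, where 20.2% of all genes did.

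The chromosome 17 cluster was also low in PSMPs & OE-Hdac3, and its sums in con-in vitro lay above those in con. Its 13 members summed to 58.2 and 79.5 CPM in PSMPs & OE-Hdac3, 318 and 435 CPM in in vitro PSMPs, 467 and 595 CPM in SAHA, 486 and 259 CPM in con-in vitro, 59.0 CPM in in vivo PSMPs, against 94.2 and 40.4 CPM in con. The con, in vivo PSMPs and PSMPs & OE-Hdac3 libraries were all below 100 CPM and the in vitro PSMPs, SAHA and con-in vitro libraries were all above 250 CPM. Of the 13 members, 8 rose in con-in vitro against con (14.7% of all genes) and 6 in SAHA against con (20.2% of all genes), and 9 were at 0 in the second con library. Pairs of promoter windows were 38.8% to 94.1% identical in the chromosome 4 cluster and 43.3% to 93.8% identical in the chromosome 17 cluster. These windows lie before the start, and the likeness of exons was not measured. How reads that match several neighbours were counted is not given in the sources used here. A sum is less open to reads split between neighbours than a single member, whose value is uncertain in both clusters. Exons of 55 of the 183 members also overlap those of another gene, and whether the counting used strand is not given.

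**Figure D5:**
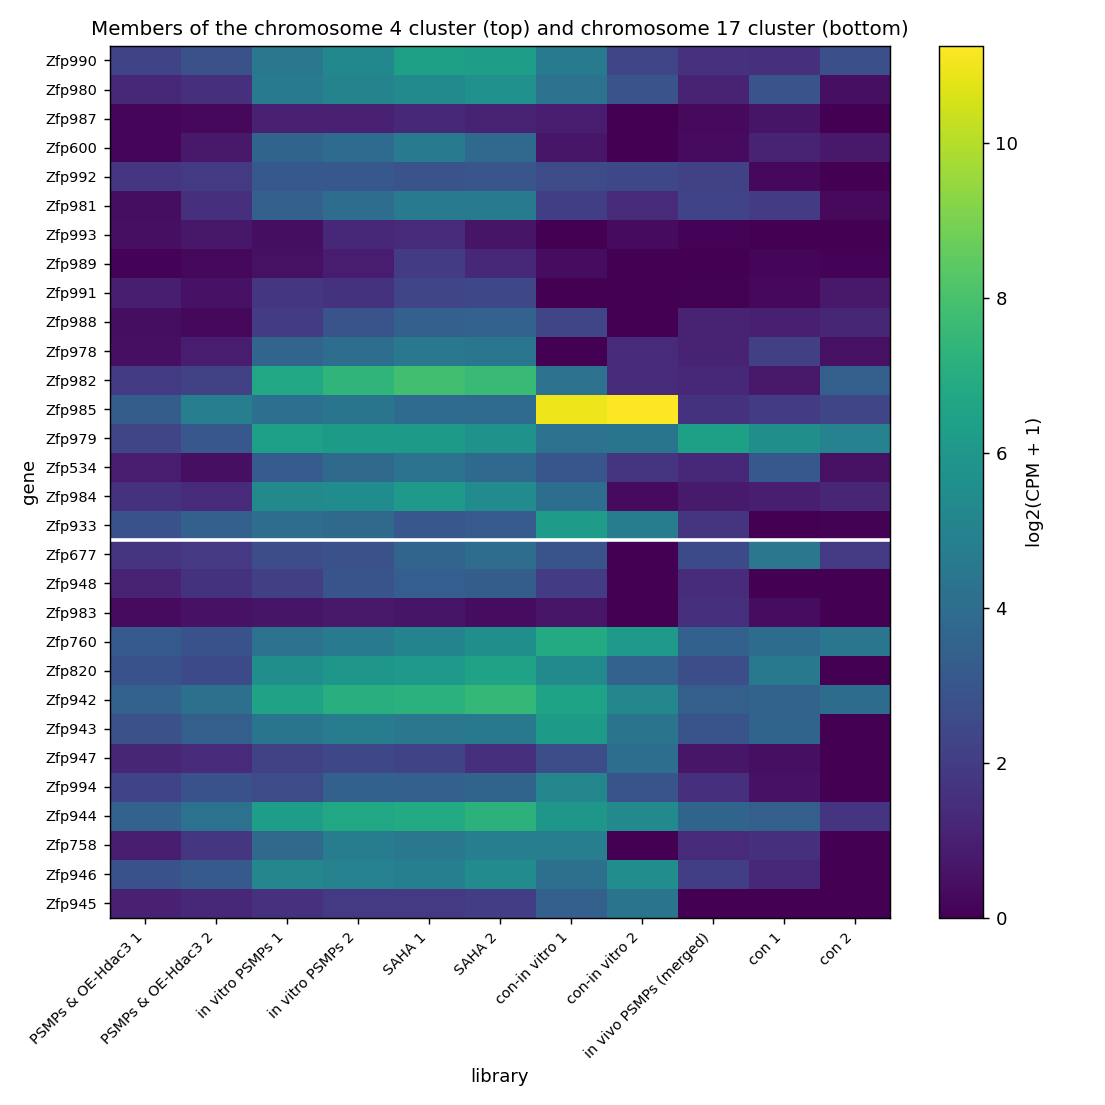
Level as log2(CPM + 1) of the 17 members of the chromosome 4 cluster (above the white line) and the 13 of the chromosome 17 cluster (below it), in genomic order, by library. Most rows of the chromosome 4 cluster are brightest in in vitro PSMPs and SAHA and dark in PSMPs & OE-Hdac3, and Zfp985 is brightest in the con-in vitro libraries.

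Members with known roles were followed by list. Of the KRAB silencers of retroelements and imprints, Zfp568 (which represses a placental Igf2 transcript in mouse embryos) had 38.1 and 29.5 CPM in PSMPs & OE-Hdac3, 15.4 and 24.6 in in vitro PSMPs, 16.6 and 19.7 in SAHA, 9.20 and 22.1 in con-in vitro, 32.2 in in vivo PSMPs, against 32.1 and 28.8 CPM in con, and passed no test. Zfp809, which silences murine leukaemia viruses in embryonic cells, had 4.98 and 5.00 CPM in SAHA, against 0 and 0.0515 CPM in con, a ratio of 169 with a 95% Poisson interval of 46.7 to 1390 (edgeR adjusted p = 0.0240). Zfp932 rose in con-in vitro, with 67.7 and 16.9 CPM in con-in vitro and 5.11 and 3.40 CPM in con (log2 fold change 3.31 ± 0.77 SE, edgeR adjusted p = 0.0156), and Zfp819 stayed at or under 3.18 CPM in every library. Together 2 of these 4 tested genes rose in SAHA against con (20.2% of all genes) and 1 in con-in vitro against con (14.7% of all genes). None was called in any other comparison, and Zfp708 was below the count rule. With 4 genes these counts say little about the list. The Zfp809 call was lost without any 1 library of SAHA, in vitro PSMPs or PSMPs & OE-Hdac3. The other rise in SAHA against con, that of Zfp932, was lost in the same fits and without con 2. In con-in vitro against con the Zfp932 call held in all 12 fits that left out 1 column. Each of these calls was lost in a fit to the 2 groups alone.

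Among partners of chromatin complexes, Zfp541 was the only one of 6 tested genes called in any comparison. It was lower than con in SAHA (6.75% of all genes) and in con-in vitro (10.5% of all genes). The SAHA call was lost without either SAHA library (edgeR adjusted p up to 0.102). Zfp592 and Zfp687, whose human counterparts act together with the reader protein ZMYND8, went different ways in level: Zfp592 had 61.2 to 199 CPM in all libraries, and Zfp687 had 19.5 and 21.1 CPM in PSMPs & OE-Hdac3, 1.86 and 5.09 CPM in in vitro PSMPs and 3.23 to 21.6 CPM in the controls. Zfp638, which in human cells recruits the silencing complex HUSH to unintegrated retroviral DNA, had 23.5 to 158 CPM. Zfp644, a partner of the H3K9 methyltransferases G9a and GLP, was at 1.29 CPM in in vivo PSMPs, against 4.24 and 0.0515 CPM in con and at 15.6 to 40.3 CPM elsewhere. Zfp516 stayed below 10 CPM, Zfp711 was seen in SAHA at 1.92 and 0.682 CPM and at most 0.0909 CPM elsewhere and was not tested, and Zfp827 was below the count rule.

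In the list of ribosome and RNA processing, Zfp598 was called in 5 of the 7 comparisons between groups. Zfp622 rose in in vivo PSMPs and in SAHA against con and in SAHA against con-in vitro, with 2.09 and 2.33 CPM in SAHA, 3.20 CPM in in vivo PSMPs and 0 in all 4 control libraries. All 3 calls were lost without either SAHA library, and those in in vivo PSMPs and in SAHA against con-in vitro also without any 1 library of in vitro PSMPs or PSMPs & OE-Hdac3, with edgeR adjusted p of up to 0.143. Zfp593, whose yeast counterpart acts in export of the large ribosomal subunit, was not called, with 13.5 and 11.8 CPM in PSMPs & OE-Hdac3, 0.405 and 0 in in vitro PSMPs, 0 and 0 in SAHA, 1.48 and 8.74 in con-in vitro, 5.13 in in vivo PSMPs, against 0 and 7.52 CPM in con. Its exons overlap those of an antisense neighbour over 77.9% of their length. Zfp830, a splicing-associated factor needed in mouse oocytes and early embryos, varied least, between 21.0 and 55.0 CPM.

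The developmental regulators were led by Zfp536 and Zfp750, described above, and by Zfp703. Zfp703, a corepressor known from breast epithelium, had 22.1 and 14.7 CPM in PSMPs & OE-Hdac3, 0.892 and 2.67 CPM in in vitro PSMPs, 2.09 and 2.22 CPM in SAHA, 6.53 and 21.9 CPM in con-in vitro, 31.2 CPM in in vivo PSMPs, against 28.5 and 22.4 CPM in con. It was thus low in the exposed cultures and in SAHA, and was called in SAHA against con only (log2 fold change -3.56 ± 0.94 SE, edgeR adjusted p = 0.0246), a call lost without either SAHA library or either PSMPs & OE-Hdac3 library (edgeR adjusted p up to 0.135). Zfp800, which is needed for endocrine development of the mouse pancreas, was at 0 in con, con-in vitro and in vivo PSMPs and between 1.24 and 2.54 CPM in the other groups, and rose in SAHA against con (at least 34.5-fold above the floor of 3 counts over the con group, edgeR adjusted p = 0.0140), a call lost without either SAHA library (edgeR adjusted p up to 0.0589) and in a fit to the 2 groups alone. Zfp503 and Zfp521 stayed near or below 1 CPM in most libraries, with 5.00 CPM of Zfp521 in the first con library and 0 in the second.

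The corepressor and heterochromatin genes with which KRAB proteins work were counted in the same fit, 22 in number. Of them 2 rose and 4 fell in in vitro PSMPs against con-in vitro (27.3%, against 15.4% of all genes), 3 rose and 5 fell in SAHA against con-in vitro (36.4%, against 19.8%), 2 rose and 1 fell in PSMPs & OE-Hdac3 against in vitro PSMPs (13.6%, against 4.83%), and none passed in in vivo PSMPs against con. Uhrf1 and Dnmt3a were among the falls against con-in vitro in both in vitro PSMPs and SAHA, and stood high in con-in vitro alone. Uhrf1 had 8920 and 6370 CPM in con-in vitro and 284 to 458 CPM in the other libraries. Dnmt3a had 1350 and 1380 CPM in con-in vitro and 58.7 to 344 CPM in the other libraries. Trim28 was not called in in vitro PSMPs or SAHA against con-in vitro. It was lower than con in SAHA (log2 fold change -2.79 ± 0.49 SE, edgeR adjusted p = 0.00945). In con-in vitro it was also lower than con (-1.78 ± 0.48 SE on the log2 scale, edgeR adjusted p = 0.0282). Its level was 533 and 461 CPM in con and 41.8 to 251 CPM in the other libraries. The first call was lost without either SAHA library and the second without con-in vitro 1. Against con the shares were near those of all genes: 2 rose and 4 fell in SAHA (27.3%, against 27.0%) and 3 rose and 2 fell in con-in vitro (22.7%, against 25.1%). With library totals the splits were 6 higher and 3 lower in in vitro PSMPs and 6 higher and 4 lower in SAHA against con-in vitro, 4 higher and 1 lower in PSMPs & OE-Hdac3 against in vitro PSMPs, and 3 higher and 4 lower in con-in vitro against con. Setdb1 had 152 and 146 CPM in PSMPs & OE-Hdac3, 55.6 and 47.3 CPM in in vitro PSMPs, 32.0 and 27.2 CPM in SAHA, 158 and 230 CPM in con-in vitro, 181 CPM in in vivo PSMPs, against 148 and 198 CPM in con. It fell by 1.91 on the log2 scale in in vitro PSMPs (edgeR adjusted p = 0.00737) and by 2.71 in SAHA against con-in vitro (edgeR adjusted p = 0.00122). It was 1.53 higher on the log2 scale in PSMPs & OE-Hdac3 than in in vitro PSMPs (edgeR adjusted p = 0.0411). Zfp57, the KRAB protein that protects imprints, had 56.4 and 66.2 CPM in PSMPs & OE-Hdac3, 597 and 443 CPM in in vitro PSMPs, 454 and 294 CPM in SAHA and 12.6 to 36.8 CPM in the other groups. Its call in PSMPs & OE-Hdac3 and that of Setdb1 there were lost without any 1 library of PSMPs & OE-Hdac3, in vitro PSMPs or SAHA (edgeR adjusted p up to 0.226 and 0.298), and the Setdb1 call in in vitro PSMPs without in vitro PSMPs 2 (edgeR adjusted p = 0.0599) and with library totals, where it was -0.92 on the log2 scale (edgeR adjusted p = 0.101).

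Set beside the 145 tested Zfp genes numbered below 500, the high-number members had the higher share called in some comparisons and the lower in others. In members and low-number genes the shares called were 11% and 9.66% in in vivo PSMPs against con, 11.6% and 8.28% in in vitro PSMPs against con-in vitro, 16% and 17.2% in SAHA against con-in vitro, 34.3% and 29.7% in SAHA against con, 5.52% and 2.07% in PSMPs & OE-Hdac3 against in vitro PSMPs, and 23.8% and 25.5% in con-in vitro against con. The difference between these sets was not tested. Over all comparisons 86 of 181 members were called at least once and 95 never. The same count was not made over all genes, so it is not shown to be particular to the members.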

How the data were processed

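RNA was sequenced from 12 libraries of 5 mouse oocytes, 2 in each of 6 groups. The values are raw counts per gene deposited by the authors as 1 table, with gene coordinates. Per the submitters' processing notes, the build was mm10 and the tools were featureCounts, HISAT2, Bowtie2 2.2.5, fastp 0.12.4, DESeq2, deepTools 3.5.1, Picard and SAMtools, in no stated order or role. Groups came from the labels, and 0 columns of the table were left unmapped. The members and all lists were chosen with earlier results of these data known, so no p-value is adjusted over a list alone.

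The near-identical in vivo PSMPs columns were averaged into 1 sample. Genes passing filterByExpr (minimum count 10, on the 12 columns) were kept, 16736 of 55401. Counts were scaled by TMM and fitted over all groups with edgeR 4.0.16 in R 4.3.3 (limma 3.58.1), by the quasi-likelihood test, two-sided, with 5 residual degrees of freedom and a biological coefficient of variation of 71.9%. P-values were adjusted by Benjamini-Hochberg over all genes, with a threshold of 0.05. A fold against a group at 0 is given as a bound at a floor of 3 counts over that group, and ratios to groups with 1 to 3 counts have 95% exact Poisson intervals. Intervals and floors cover counting error only. The steps were tested on simulated data. Totals of 6.22 to 35.6 M counts limit members of a few CPM to a few reads in the shallowest libraries.

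Named genes are the 6 largest rises and 6 largest falls per comparison among called members whose groups do not overlap and whose higher group averages at least 5 CPM (2 each way in the contrast of the PSMPs effects), the 12 most abundant members and the role lists, 62 in all. Other members named were chosen after their values were seen. Alternatives were a filter at minimum count 50, no filter, DESeq2 size factors, library totals, DESeq2 1.42.0, a fit to the compared groups alone, the in vivo PSMPs columns kept as 2 libraries, a replicate block, and leaving out each column in turn. Promoter windows are from RefSeq (GRCm38.p6). Counts of fingers or KRAB boxes, planned from protein sequences, were not made, and the CUT&Tag data were not analysed here.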

Additional observations from a re-analysis of the deposited data

Results flagged for a closer look

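The effect of PSMPs differed between culture and the animal for 21 members, by a test of the difference itself (an interaction contrast in edgeR, in vitro PSMPs minus con-in vitro, less in vivo PSMPs minus con). This was 11.6% of the tested members, near the 11.3% called among all genes. In vivo PSMPs was 1 merged sample in this contrast. For the named genes the difference on the log2 scale was -12.78 for Zfp626, -12.13 for Zfp780b, -11.13 for Zfp950, -10.08 for Zfp963, -9.90 for Zfp870, -9.83 for Zfp583 and -9.47 for Zfp704, all of which had no count in con except Zfp583, with 2, so that these fitted values are no bounds. It was -8.74 for Zfp536, -6.91 for Zfp788, -6.23 for Zfp985, -5.44 for Zfp839, -5.12 for Zfp710 and -2.45 for Zfp598. It was above 0 for Zfp706 (3.04), Zfp960 (6.12) and Zfp595 (14.99). Zfp595 had 1.13 and 3.31 CPM in in vitro PSMPs, 0 and 0.273 CPM in con-in vitro, 0 CPM in in vivo PSMPs and 19.3 and 10.2 CPM in con. The differences of Zfp985 and Zfp536 stayed past the threshold without any 1 column, and the others lost their call without 1 or more of the in vitro PSMPs, SAHA or PSMPs & OE-Hdac3 libraries.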

How the results depend on the processing

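No single named gene reversed its direction, but the split of calls turned from 53 higher and 9 lower to 5 higher and 7 lower for SAHA against con in a fit to those groups alone, and from 3 and 7 to 8 and 5 for PSMPs & OE-Hdac3 against in vitro PSMPs with library totals. Over all genes these splits went from 3382 and 1129 to 1024 and 426, and from 309 and 499 to 548 and 306. Of 138 calls of named members recomputed, 31 held without any 1 column and 107 were lost without at least 1. Members called, with the range on leaving out 1 column, were 20 (0 to 52) in in vivo PSMPs against con, 21 (5 to 55) in in vitro PSMPs against con-in vitro, 29 (4 to 70) in SAHA against con-in vitro, 62 (4 to 97) in SAHA against con, 10 (0 to 39) in PSMPs & OE-Hdac3 against in vitro PSMPs, 0 (0 to 10) in PSMPs & OE-Hdac3 against in vivo PSMPs, 43 (28 to 78) in con-in vitro against con and 21 (2 to 53) in the difference between the PSMPs effects. The calls over all genes also moved widely on leaving out 1 column. DESeq2 called 41 in vivo, 49 in culture, 65 in SAHA against con-in vitro, 37 and 12 in PSMPs & OE-Hdac3 against in vitro and in vivo PSMPs, and 44 in the difference. In the same order it called 2728, 4633, 5354, 2592 and 870, and 4129 of all genes. A fit to the compared groups alone called 0 in vivo, 12 in SAHA against con, 70 and 71 in PSMPs & OE-Hdac3 against in vitro and in vivo PSMPs, 6 between the controls and 2 in the difference. Over all genes these fits called 0, 1450, 5491 and 7215, 836 and 245. The in vivo PSMPs columns kept as 2 libraries gave 50 in vivo, 38 in culture, 45 in SAHA against con-in vitro, 21 and 12 in PSMPs & OE-Hdac3 against in vitro and in vivo PSMPs, and 42 in the difference. Among all genes that setting gave 4180, 3917, 4674, 1489 and 1355, and 4013. Library totals gave 32 in culture, and no filter gave 2 in PSMPs & OE-Hdac3 against in vivo PSMPs. Of the 22 corepressor genes, in the same order of comparisons, 0 (0 to 2), 6 (4 to 10), 8 (4 to 11), 6 (1 to 9), 3 (0 to 7), 0 (0 to 1), 5 (5 to 9) and 4 (2 to 8) were called. DESeq2 called 1 of them in vivo, 10 in culture, 7 and 2 in PSMPs & OE-Hdac3 against in vitro and in vivo PSMPs, and 7 in the difference. The compared groups alone gave 12 and 11 in PSMPs & OE-Hdac3 against in vitro and in vivo PSMPs, 3 between the controls and 2 in the difference. With 2 in vivo PSMPs libraries they were 1 in vivo, 5 and 2 in PSMPs & OE-Hdac3 against in vitro and in vivo PSMPs, and 7 in the difference, and library totals gave 5 in PSMPs & OE-Hdac3 against in vitro PSMPs. The cause of these changes was not tested. Replicate numbers were not taken to pair the samples. Correlations of same-numbered samples ran from -0.373 (con and in vitro PSMPs) to 0.114 (con-in vitro and SAHA). Whether libraries of different groups shared a batch was not tested. With a replicate block the members called were 44 in vivo, 17 and 5 in PSMPs & OE-Hdac3 against in vitro and in vivo PSMPs, and 32 in the difference, and the corepressor genes 1 in PSMPs & OE-Hdac3 against in vivo PSMPs and 7 in the difference. The block moved the count of members or corepressor genes by no more than 1.5 times in the other comparisons. With 2 libraries of 5 oocytes per group, and shallow cultured controls, members of a few CPM rest on few reads.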

Other observations

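A chromosome 7 cluster of 7 members was highest in PSMPs & OE-Hdac3. Its summed level was 119 and 94.8 CPM in PSMPs & OE-Hdac3, 14.2 and 11.1 CPM in in vitro PSMPs, 5.60 and 9.72 CPM in SAHA, 26.1 and 55.7 CPM in con-in vitro, 38.1 CPM in in vivo PSMPs and 3.47 and 31.3 CPM in con. The PSMPs & OE-Hdac3 libraries lay above all others, and the SAHA and in vitro PSMPs libraries lay within the range of con, whose libraries differed widely. The median log2 fold change in PSMPs & OE-Hdac3 against in vitro PSMPs was 2.64, and none of the 7 was called in that comparison by edgeR. The cluster was picked after its values were seen.

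The neighbours Zfp616 and Zfp735 on chromosome 11 summed to 50.4 and 68.1 CPM in PSMPs & OE-Hdac3, 599 and 953 CPM in in vitro PSMPs, 1150 and 1120 CPM in SAHA, 778 and 172 CPM in con-in vitro, 273 CPM in in vivo PSMPs and 317 and 182 CPM in con. The con-in vitro libraries differed more than 4-fold from each other in this sum.

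Of the 7 motifs searched on either strand of the 250 bases before the start, shares are given for members, Zfp genes numbered below 500 and all windows. CACGTG was present in 9.93%, 3.42% and 6.05%, GGGCGG in 45.7%, 38.4% and 32.9%, and CCAAT in 51.7%, 43.2% and 34.5%. TATAAA was present in 1.99%, 8.90% and 13.0%, CCGGAAGT in 7.28%, 11% and 2.93%, TGACGTCA in 1.99%, 4.11% and 1.62%, and the ZNF143 motif in 1.32%, 4.79% and 0.285%. Members thus had the largest share for the first 3 motifs and not for the last 4. Neighbours share ancestry, so these windows are not independent.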
